A study of Mus musculus with 42 samples.

Results

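Thumpd1, Vps35, Rpl29, Mrps27, Psmd8, Fbxo34 and Nle1 are 7 of the 19057 mouse genes named on the array. They were picked because their transcript level differed between lines of pluripotent cells, though not between every pair of lines, at every sampled day of a differentiation course. Every probe whose platform symbol is one of these names was followed, which gave 14 of the 45281 probes on the array: 1 for Thumpd1, 2 each for Vps35, Rpl29, Psmd8 and Nle1, 1 for Mrps27 and 4 for Fbxo34. Of the 14 probes, 12 passed a filter on low signal, among 19251 that did so on the whole array. Probe ILMN_2546047 of Psmd8 and probe ILMN_1227903 of Fbxo34 did not, because they were detected on 0 of the 42 arrays. Since the differences between lines chose the genes, those differences are described here without a test. Changes with time and differences from hepatocytes were tested. Day 28 values took part both in the choice of the genes and in the tests against hepatocytes. The direction of those tests is therefore not independent of the choice.

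The products of these genes sit in the machinery that makes, sorts and destroys proteins in nearly every cell. Thumpd1 is an adaptor that lets the acetyltransferase Nat10 acetylate transfer RNA, Rpl29 is a protein of the large cytosolic ribosomal subunit, Nle1 is a factor that the giant ATPase Mdn1 acts on while that subunit is assembled, and Mrps27 belongs to the small subunit of the mitochondrial ribosome. Psmd8 is part of the regulatory particle of the proteasome, Fbxo34 is an F-box protein, a class that brings substrates to SCF ubiquitin ligases, and Vps35 is the core of retromer, which returns membrane proteins from endosomes. Such genes are commonly taken to be expressed in most tissues.

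Total RNA had been hybridised to Illumina bead arrays, 1 array per sample. The cultured groups were embryonic stem (ES) cells and 2 lots, A and B, of pluripotent stem cells derived from germline cells (GPSC-A and GPSC-B), each sampled untreated at day 0 and at days 2, 7, 14, 21 and 28 of embryoid body (EB) culture, with 2 arrays per line and day. The other groups were primary liver hepatocytes from E16 embryos and from mice of postnatal day 1 (PN1), with 3 arrays each. The labels name no mouse strain and no number of lines or clones behind a lot. They also do not say whether arrays of a group came from separate cultures or animals, so a p-value here reflects array-to-array spread that may be purely technical. As whole cultures were measured, fewer cells of a type and less RNA per cell cannot be told apart.

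Arrays detected 9873 to 15123 probes in cultured cells and 8427 to 11539 in hepatocytes, at a median scanner signal of 116 to 158 and of 109 to 115. No arrays were identical, and replicate arrays correlated at 0.944 to 0.978 across probes. All 6 markers of pluripotent cells (Pou5f1, Sox2, Nanog, Zfp42, Esrrb and Dppa5a) were detected on every day 0 array and on 0 hepatocyte arrays. Of 8 hepatocyte markers, 7 were detected on all E16 arrays and 5 on all PN1 arrays, where albumin (Alb) was detected on 0 of 3. The 3 measured erythroid markers averaged 15.14 on the log2 scale in E16 and 15.39 in PN1 and 5.04 to 5.29 at day 0 of the lines, and their part in the hepatocyte values below was not tested.

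A probe met the every-day rule for a pair of lines when both arrays of one line lay on the same side of both arrays of the other at all 6 days. Between ES and GPSC-A, 10 of the 12 probes met it, all lower in ES, against 2.27% of all 19251 probes. Between ES and GPSC-B, 7 met it, 6 of them lower and 1 higher in ES, against 2.99% of all probes. Between the lots, 5 met it, all lower in GPSC-B, against 0.447% of all probes. Nothing is read from these counts, because the genes had been chosen by the same contrasts. Just inside the rule, probe ILMN_2984434 of Nle1 differed between ES and GPSC-A by only -0.18 at its closest day. Just outside it, probe ILMN_2844784 of Vps35 was lower in ES than in GPSC-B at 4 of 6 days. Values below are normalised log2 intensities, where 1 unit is a factor of 2, and an error after ± is the standard error (SE) of the model fitted to all arrays.

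Thumpd1 (chromosome 7, 119715093 to 119723619, GRCm38.p6) has only 1 probe, so an effect of probe sequence was not tested. Its signal was bright in both GPSC lots at every day and close to background in differentiating ES cells. Its probe, ILMN_2722488, read 7.16 and 6.50 on the ES arrays of day 0, and on the 10 ES arrays of days 2 to 28 it ran from 4.55 through a median of 4.72 to 5.02 and was detected on 0. The GPSC-A arrays read 11.30 and 11.32 at day 0 and 9.96 and 10.28 at day 28, and the GPSC-B arrays 11.14 and 11.65 and then 9.56 and 10.10. Every ES array lay below every GPSC array. On the scanner's own linear scale, the ES arrays of days 2 to 28 gave signals of 104 to 140, against 1010 to 3450 on the GPSC-A arrays and 936 to 4425 on the GPSC-B arrays.

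At day 0 the ES level was -4.48 ± 0.25 from GPSC-A and -4.57 ± 0.25 from GPSC-B (n = 2 arrays each). Once ES cells were below detection only a bound could be given, set by the lowest detected signal of each array. ES was then at least 30.6-fold lower than GPSC-A at day 2 and at least 17.7-fold lower at day 28, and at least 32.4-fold and 14.5-fold lower than GPSC-B. On the normalised scale hepatocytes stood near the GPSC lots, at 10.42, 10.52 and 10.92 in E16 and 9.50, 9.47 and 9.75 in PN1. Their scanner signals were lower, at 673 to 1224 in E16, which overlapped the GPSC arrays, and 308 to 377 in PN1, below every GPSC array. The gene's RefSeq promoter window, the 250 bases before the annotated start in GRCm38.p6, is shown because Thumpd1, Mrps27 and Psmd8 were each detected in both GPSC lots at all days and in ES cells at no day after day 0. It lies at chr7:119723620-119723869 on the minus strand, reads 5′ to 3′ and is all in lower case because none of the motifs searched was found in it.
Thumpd1: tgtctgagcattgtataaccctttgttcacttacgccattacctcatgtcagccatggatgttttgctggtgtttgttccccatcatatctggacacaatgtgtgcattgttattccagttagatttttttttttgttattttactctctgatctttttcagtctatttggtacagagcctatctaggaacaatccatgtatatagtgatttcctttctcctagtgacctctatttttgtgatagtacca
The window has 36.8% G and C and 1 CpG, against a median of 52.4% and 6 CpGs over 32851 RefSeq windows of the same length. The motifs searched, on both strands, were the TATA box (TATAAA, in 12.4% of all windows), the CCAAT box (CCAAT, 33.8%), the GC box (GGGCGG, 32.7%), an ETS core (CCGGAAG, 6.91%) and the NRF1 site (0.782%). A match is a description of letters only.

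With time, Thumpd1 fell in every line. In ES cells it was at least 1.81-fold lower at day 28 (fitted change -2.12 ± 0.25, adjusted p = 1.2e-07). It fell by 1.18 ± 0.25 in GPSC-A (adjusted p = 0.00057) and fell by 1.56 ± 0.25 in GPSC-B (adjusted p = 1.6e-05). Against E16 hepatocytes, day 28 ES cells were at least 25.0-fold lower (adjusted p = 2.5e-18). Day 28 GPSC-A and GPSC-B differed from E16 by -0.50 ± 0.23 (adjusted p = 0.095) and -0.79 ± 0.23 (adjusted p = 0.0079), less than the 2-fold needed for a call, though without day 28 replicate 2 the GPSC-B value was -1.06. With median scaling the sign of both turned, to 0.44 and 0.06. The PN1 difference from E16 was -1.04 ± 0.21 (adjusted p = 0.00022), which dropped under 2-fold without E16 replicate 3 (-0.89) or PN1 replicate 2 (-0.99).

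Vps35 (chromosome 8, 85260385 to 85299517) gave different pictures on its 2 probes. On ILMN_1252737, ES cells read 10.10 and 9.73 at day 0 and then 5.67 to 7.07 over the 10 arrays of days 2 to 28, with a median of 6.49. GPSC-A ran from 12.29 through a median of 12.58 to 13.26, and GPSC-B from 12.23 through 12.73 to 13.38, over 12 arrays each. The ES arrays lay below every GPSC array, by -2.50 ± 0.48 from GPSC-A at day 0 and -6.82 ± 0.48 at day 28, and by -2.89 ± 0.48 and -6.86 ± 0.48 from GPSC-B.

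On ILMN_2844784, ES arrays ran from 8.73 through 9.20 to 10.27, GPSC-A from 8.78 through 9.28 to 9.67 and GPSC-B from 9.08 through 9.38 to 10.31, all of them detected. The ranges of the 3 lines overlapped. The mean difference over the 6 days was 0.01 between ES and GPSC-A and -0.24 between ES and GPSC-B, where the other probe gave -5.72 and -5.76. The probes correlated at 0.10 over the 42 arrays, a description only, since arrays share lines and days. The sequences the probes target are not in the files used here, so which transcripts each one reads was not tested.

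The probes also parted over time. ILMN_1252737 fell by 3.85 ± 0.48 from day 0 to day 28 in ES cells (adjusted p = 2.9e-07), and its changes of 0.46 ± 0.48 in GPSC-A (adjusted p = 0.54) and 0.13 ± 0.48 in GPSC-B (adjusted p = 0.88) did not pass. ILMN_2844784 changed by -0.67, 0.69 and -0.30, each ± 0.43 (adjusted p = 0.26, 0.26 and 0.66). E16 hepatocytes read 7.48, 7.33 and 8.25 on ILMN_1252737, so day 28 GPSC-A and GPSC-B were higher by 5.198 ± 0.44 (adjusted p = 7.7e-11) and 5.25 ± 0.44 (adjusted p = 6.6e-11), and ES cells were lower (-1.62 ± 0.44, adjusted p = 0.0042, but -1.22 and 0.10 without day 28 replicate 2). On ILMN_2844784 the same 3 differences from E16, whose arrays read 9.56, 9.09 and 11.15, were -0.35, -0.44 and -0.86 and none was called (adjusted p = 0.54, 0.44 and 0.091), although ES cells reached -1.28 (adjusted p = 0.012) without E16 replicate 2. With median scaling the sign turned in GPSC-A and GPSC-B, to 0.60 and 0.41.

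Rpl29 (chromosome 9, 106428889 to 106431568) was lower in ES cells than in both lots on both of its probes. On ILMN_2730005 the ES arrays read 8.79 and 9.47 at day 0 and 7.09 and 7.26 at day 28. The GPSC-A arrays ran from 12.57 through a median of 13.24 to 13.87 and the GPSC-B arrays from 11.46 through 12.35 to 12.95. The difference grew from -4.14 ± 0.37 at day 0 to -6.54 ± 0.37 at day 28 against GPSC-A, and from -2.77 ± 0.37 to -5.59 ± 0.37 against GPSC-B. GPSC-B was also lower than GPSC-A at 6 of 6 days, by -0.70 to -1.37.

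On ILMN_2857570 the ES arrays ran from 5.50 through 6.50 to 8.21, GPSC-A from 10.34 through 11.14 to 12.06 and GPSC-B from 9.997 through 10.61 to 11.91. The lines stood in the same order, and the mean differences were -4.61 from GPSC-A and -4.12 from GPSC-B, against -5.13 and -4.20 on the other probe. The difference between lots was smaller on this probe, with a mean of -0.49 and separated arrays at 2 of 6 days. Over the 42 arrays the Rpl29 probes correlated at 0.966. Ribosomal protein genes have many near-identical copies in the genome, so that signal from a copy is uncertain for both probes.

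In ES cells Rpl29 fell by 1.95 ± 0.37 between day 0 and day 28 on ILMN_2730005 (adjusted p = 0.00012), whereas ILMN_2857570 gave -0.81 ± 0.56 (adjusted p = 0.29). Neither probe passed in the lots, with 0.45 and 0.87 (each ± 0.37, adjusted p = 0.42 and 0.075) and 0.16 and 1.05 (each ± 0.56, adjusted p = 0.88 and 0.16) in GPSC-A and GPSC-B. Without GPSC-B day 0 replicate 1 the GPSC-B rise on ILMN_2730005 was 1.31 and passed (adjusted p = 0.027). Hepatocytes read 7.28, 7.74 and 6.42 in E16 and 5.92, 7.27 and 6.28 in PN1 on ILMN_2730005, where day 28 ES cells read 7.09 and 7.26. Day 28 GPSC-A exceeded E16 by 6.57 ± 0.34 (adjusted p = 1.4e-15) and GPSC-B by 5.62 ± 0.34 (adjusted p = 5e-14), and the ES difference was 0.03 ± 0.34 (adjusted p = 0.96). ILMN_2857570 gave 5.08 ± 0.51 and 4.98 ± 0.51 (adjusted p = 2.1e-09 and 3.2e-09) for the lots, with E16 detected on 1 of 3 arrays. PN1 differed from E16 by -0.66 ± 0.30 on ILMN_2730005 (adjusted p = 0.11), and passed without E16 replicate 3 (-1.02) or PN1 replicate 2 (-1.05). The probe was detected on 1 of 3 PN1 arrays, so these sizes are uncertain.

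Mrps27 (chromosome 13, 99344767 to 99415562) was detected in the lots alone on its only probe, so an effect of probe sequence was not tested. Its probe, ILMN_2588199, was detected on 0 of 12 ES arrays (4.48 to 5.28, with a median of 4.61), 0 of 3 E16 arrays (4.51, 4.58 and 4.61) and 0 of 3 PN1 arrays (4.78, 4.51 and 4.57). The GPSC-A arrays read 9.17 and 9.26 at day 0, 8.12 and 8.14 at day 14 and 6.38 and 7.78 at day 28. The GPSC-B arrays read 9.32 and 8.71, 8.29 and 8.02, and 7.09 and 6.85 at the same days. ES cells were at least 10.2-fold lower than GPSC-A and at least 8.88-fold lower than GPSC-B at day 0, bounds that shrank to 2.15-fold and 2.00-fold at day 28 as the lots came down towards background.

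Mrps27 fell between day 0 and day 28, by 2.14 ± 0.33 in GPSC-A (adjusted p = 8.9e-06) and fell by 2.04 ± 0.33 in GPSC-B (adjusted p = 1.5e-05). At day 28 both lots were still called higher than E16 hepatocytes, on fitted differences of 2.51 and 2.40. The probe had passed the filter on low signal only through arrays of the lots, so nothing is read from these calls. E16 was undetected, so the bounds were only 1.44-fold and 1.33-fold, under the 2-fold of a call. The Mrps27 window, chr13:99344536-99344785 on the plus strand, has 71.6% G and C and 24 CpGs, and its capitals mark an ETS core on the opposite strand.
Mrps27: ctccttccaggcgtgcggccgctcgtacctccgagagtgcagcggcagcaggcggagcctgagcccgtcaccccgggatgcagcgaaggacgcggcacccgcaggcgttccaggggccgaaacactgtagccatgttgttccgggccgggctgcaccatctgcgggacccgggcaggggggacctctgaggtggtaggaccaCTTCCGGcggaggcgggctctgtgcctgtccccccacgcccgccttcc
On its only detected probe, Psmd8 (chromosome 7, 29174187 to 29180673) was at background in ES cells from day 2 on and bright in both lots. Its detected probe, ILMN_2678019, read 8.28 and 8.76 in ES cells at day 0 and then 4.61 to 5.44 on 10 arrays, all undetected. The GPSC-A arrays ran from 10.50 through 11.33 to 11.92 and the GPSC-B arrays from 10.83 through 11.33 to 11.99, over 12 arrays each. Hepatocytes were undetected too, at 4.64, 4.78 and 4.92 in E16 and 4.57, 4.78 and 4.52 in PN1. The ES cells thus joined the hepatocytes at background while both lots kept a signal of 1726 to 4797 on the linear scale.

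At day 0 ES cells differed by -2.78 ± 0.36 from GPSC-A and -2.55 ± 0.36 from GPSC-B, and at day 28 they were at least 48.2-fold and 59.2-fold lower. Between those days they became at least 5.84-fold lower (adjusted p = 1.7e-08), while the changes of 0.27 ± 0.36 in GPSC-A (adjusted p = 0.64) and 0.79 ± 0.36 in GPSC-B (adjusted p = 0.095) did not pass. Day 28 GPSC-A was at least 32.3-fold above E16 (adjusted p = 2.8e-16) and GPSC-B at least 39.6-fold (adjusted p = 1.1e-16). The other Psmd8 probe, ILMN_2546047, stayed between 4.44 and 5.04 in every group and gives no second reading. An effect of probe sequence on ILMN_2678019 was therefore not tested. The window at chr7:29180674-29180923, on the minus strand, has 52.8% G and C, 12 CpGs and 1 GC box in capitals.
Psmd8: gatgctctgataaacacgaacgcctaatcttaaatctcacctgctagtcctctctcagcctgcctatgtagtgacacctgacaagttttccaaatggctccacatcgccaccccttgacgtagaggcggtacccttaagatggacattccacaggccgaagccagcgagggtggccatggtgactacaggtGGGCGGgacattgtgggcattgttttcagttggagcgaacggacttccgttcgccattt

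**Figure D1:**
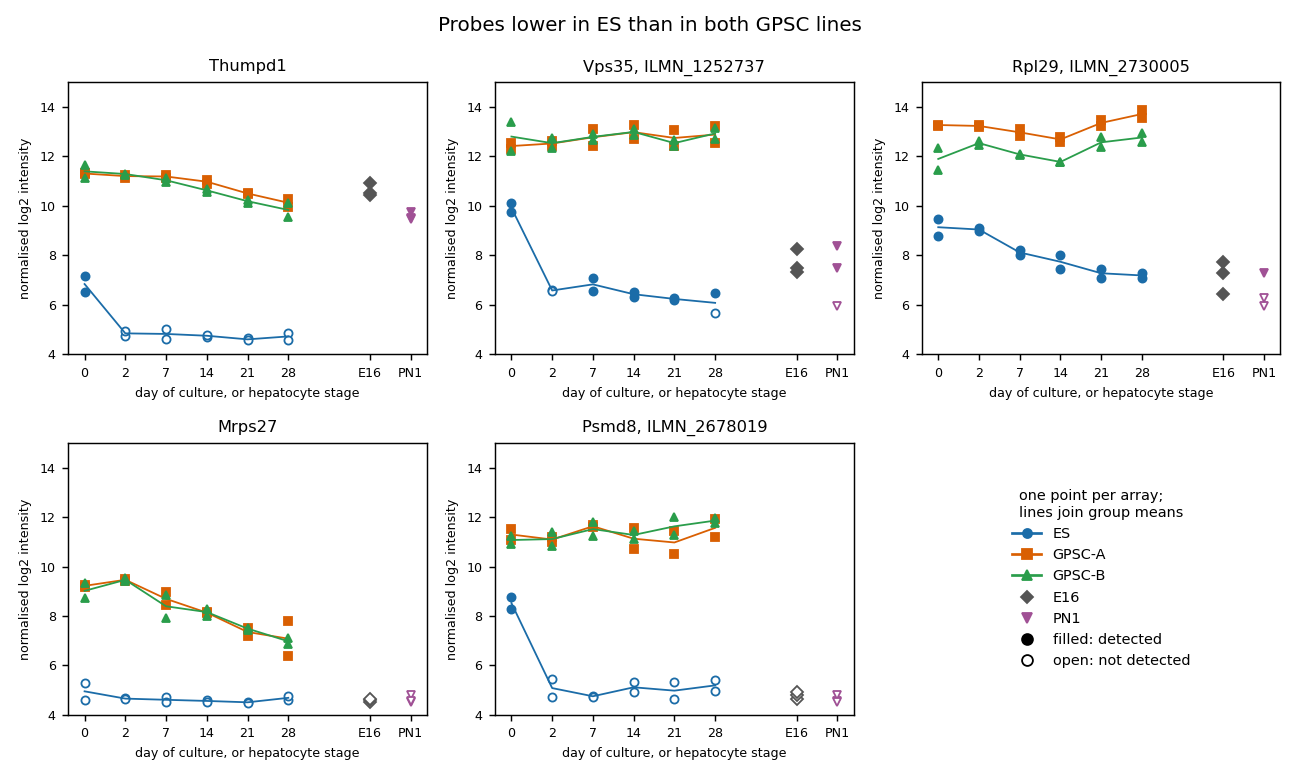
Normalised log2 intensity of 1 probe each of Thumpd1, Vps35, Rpl29, Mrps27 and Psmd8 against day of culture for ES, GPSC-A and GPSC-B, with E16 and PN1 hepatocytes at the right; points are arrays, lines join group means and open points were not detected. ES arrays lie below all GPSC arrays in every panel, and Thumpd1 hepatocytes, at 9.47 to 10.92, lie near the GPSC arrays on this normalised scale.

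**Figure D2:**
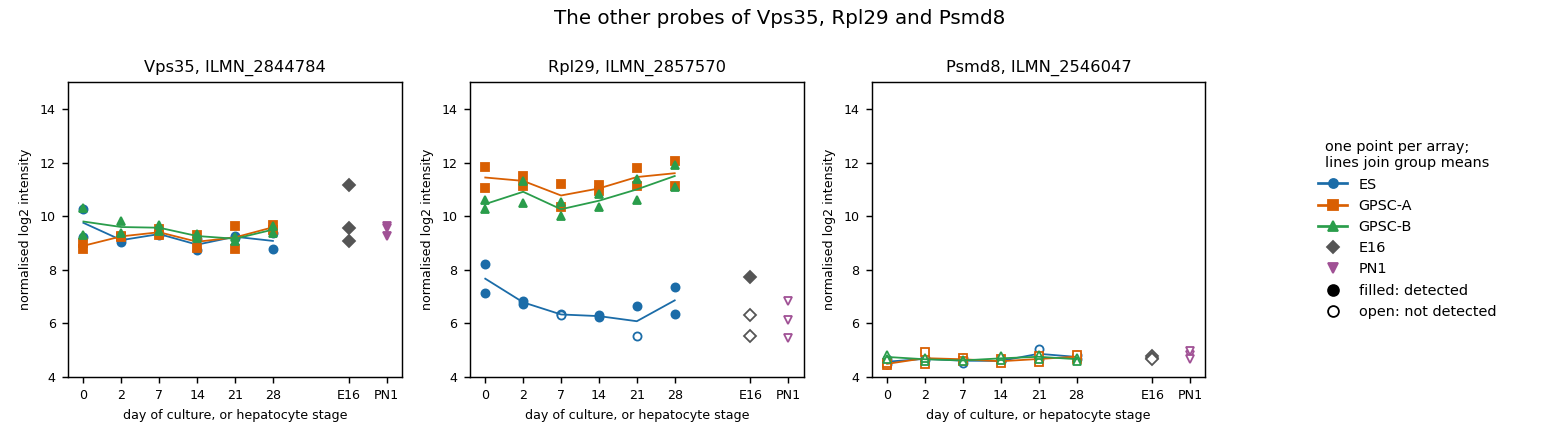
The other probes of Vps35, Rpl29 and Psmd8 on the same scales, in normalised log2 intensity against day and hepatocyte stage, 1 point per array. Lines overlap on Vps35 ILMN_2844784, stay apart on Rpl29 ILMN_2857570 and are all open, between 4.44 and 5.04, on Psmd8 ILMN_2546047.

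Fbxo34 (chromosome 14, 47472533 to 47531962) set GPSC-A apart from both other lines. On ILMN_2747552 the GPSC-A arrays ran from 10.03 through a median of 10.73 to 11.59. ES cells read 8.53 and 8.17 at day 0 and 6.22 and 5.84 at day 28, and GPSC-B read 8.50 and 8.89 and then 6.04 and 6.39. GPSC-B was lower than GPSC-A by -2.29 ± 0.39 at day 0 and -4.14 ± 0.39 at day 28, and ES cells were lower by -2.64 ± 0.39 and -4.33 ± 0.39. ES and GPSC-B overlapped at 3 of 6 days and differed by -0.51 on average. ES cells were detected on only 5 of 10 arrays of days 2 to 28, so this difference lies partly near background.

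The detected probes of Fbxo34 agreed in placing GPSC-A highest, but not in size or in the order of ES and GPSC-B. At day 2 ES averaged 6.58 and GPSC-B 7.49 on ILMN_2747552, against 7.70 and 7.23 on ILMN_2876325. ILMN_2747553 gave mean differences from GPSC-A of -4.42 for ES and -3.79 for GPSC-B, close to the -4.30 and -3.79 of ILMN_2747552. ILMN_2876325 gave -1.77 and -1.69, again with separated arrays at 6 of 6 days. Over the 42 arrays the first pair correlated at 0.982, and each of them correlated with ILMN_2876325 at 0.870 and 0.869. The undetected ILMN_1227903 stayed between 4.48 and 6.48 and correlated with none of them (-0.00 to 0.04).

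From day 0 to day 28 Fbxo34 fell in ES cells and GPSC-B. ILMN_2747552 fell by 2.32 ± 0.39 in ES cells (adjusted p = 2.3e-05) and fell by 2.48 ± 0.39 in GPSC-B (adjusted p = 1e-05), and ILMN_2747553 fell by 2.09 ± 0.50 (adjusted p = 0.0014) and fell by 2.41 ± 0.50 (adjusted p = 0.00037). At day 28 each of these probes was detected on 1 of 2 ES arrays, and in GPSC-B on 2 and 1 of 2 arrays. The sizes of these falls therefore rest partly on signals near background. In GPSC-A the 3 probes changed by -0.62, -0.76 and -0.70 and none passed (adjusted p = 0.25, 0.28 and 0.27). ILMN_2876325 fell by 1.25 ± 0.45 in ES cells (adjusted p = 0.031), a call lost without any of its 4 arrays (-1.07 to -1.42, adjusted p = 0.055 to 0.17). In GPSC-B it changed by -1.08 ± 0.45 (adjusted p = 0.065), which passed with the replicate number as a block (adjusted p = 0.0023).

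On ILMN_2747552 hepatocytes read 8.75, 8.52 and 9.37 in E16 and 8.83, 9.03 and 8.01 in PN1. These values lay between GPSC-A and the other lines at day 28, but overlapped ES cells and GPSC-B at day 0. Day 28 GPSC-A was above E16 by 1.48 ± 0.36 on ILMN_2747552 (adjusted p = 0.0013, but 1.15 and 0.056 without day 28 replicate 1) and by 1.98 ± 0.46 on ILMN_2747553 (adjusted p = 0.00087). ILMN_2876325 gave 0.32 ± 0.41 (adjusted p = 0.58). ES cells were below E16 on all 3 probes, with -2.85 ± 0.36 (adjusted p = 1.4e-07), -2.33 ± 0.46 (0.00013) and -1.79 ± 0.41 (0.00078). Each probe was detected on 1 of 2 ES arrays at day 28, so these sizes are uncertain. GPSC-B was also below, with -2.66 ± 0.36 (adjusted p = 4.5e-07), -2.20 ± 0.46 (0.00026) and -1.34 ± 0.41 (0.011). The last of these was lost without GPSC-B day 28 replicate 2 (-1.16) or E16 replicate 3 (-0.86).

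Nle1 (chromosome 11, 82900768 to 82908446) set GPSC-B apart, on 1 of its probes. On ILMN_2984434 the GPSC-B arrays read 7.20 and 7.36 at day 0, 7.14 and 7.53 at day 2 and 5.86 and 6.19 at day 28. The ES arrays read 9.21 and 9.14, 10.05 and 9.96, and 7.27 and 7.42 at those days, and the GPSC-A arrays 9.84 and 10.02, 10.06 and 10.30, and 8.11 and 8.26. GPSC-B was the lowest line at every day, by -2.45 on average from GPSC-A (range -2.84 to -2.01). ES cells were above GPSC-B by 1.91 on average and below GPSC-A by -0.54, with separated arrays at 6 of 6 days in both cases.

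ILMN_2712419 did not separate the lots. Its mean differences were -0.62 between GPSC-B and GPSC-A, with overlapping arrays at all 6 days, and 0.33 between ES and GPSC-B. GPSC-B arrays read 7.78 and 6.30 at day 0, against 8.17 and 7.39 in GPSC-A and 7.84 and 7.40 in ES cells. From day 21 on, it was detected on 1 of 12 arrays, GPSC-A day 21 replicate 1, so late line differences could not be read from it. Over the 42 arrays the Nle1 probes correlated at 0.563.

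Over time both Nle1 probes fell in all 3 lines. On ILMN_2984434 the changes from day 0 to day 28 were -1.83 in ES cells (adjusted p = 1.1e-05), -1.75 in GPSC-A (adjusted p = 2.8e-05) and -1.26 in GPSC-B (adjusted p = 0.0012), each ± 0.29. On ILMN_2712419 it was at least 3.13-fold, 3.80-fold and 2.09-fold lower at day 28 (adjusted p = 0.00036, 9e-04 and 0.0059). The GPSC-B value of that probe was lost without day 0 replicate 1 (-1.21, adjusted p = 0.17) or day 28 replicate 2 (-1.78, adjusted p = 0.054). E16 hepatocytes read 8.88, 8.78 and 8.38 on ILMN_2984434. Day 28 ES cells and GPSC-B were lower (-1.34 ± 0.27, adjusted p = 0.00016, and -2.66 ± 0.27, adjusted p = 2.2e-09). GPSC-A differed by -0.50 ± 0.27 (adjusted p = 0.15), and with median scaling the sign of this value turned, to 0.46. PN1 differed from E16 by -0.86 ± 0.24 (adjusted p = 0.0063, under 2-fold), and reached 2-fold without E16 replicate 3 (-1.01) or PN1 replicate 1 (-1.01).

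**Figure D3:**
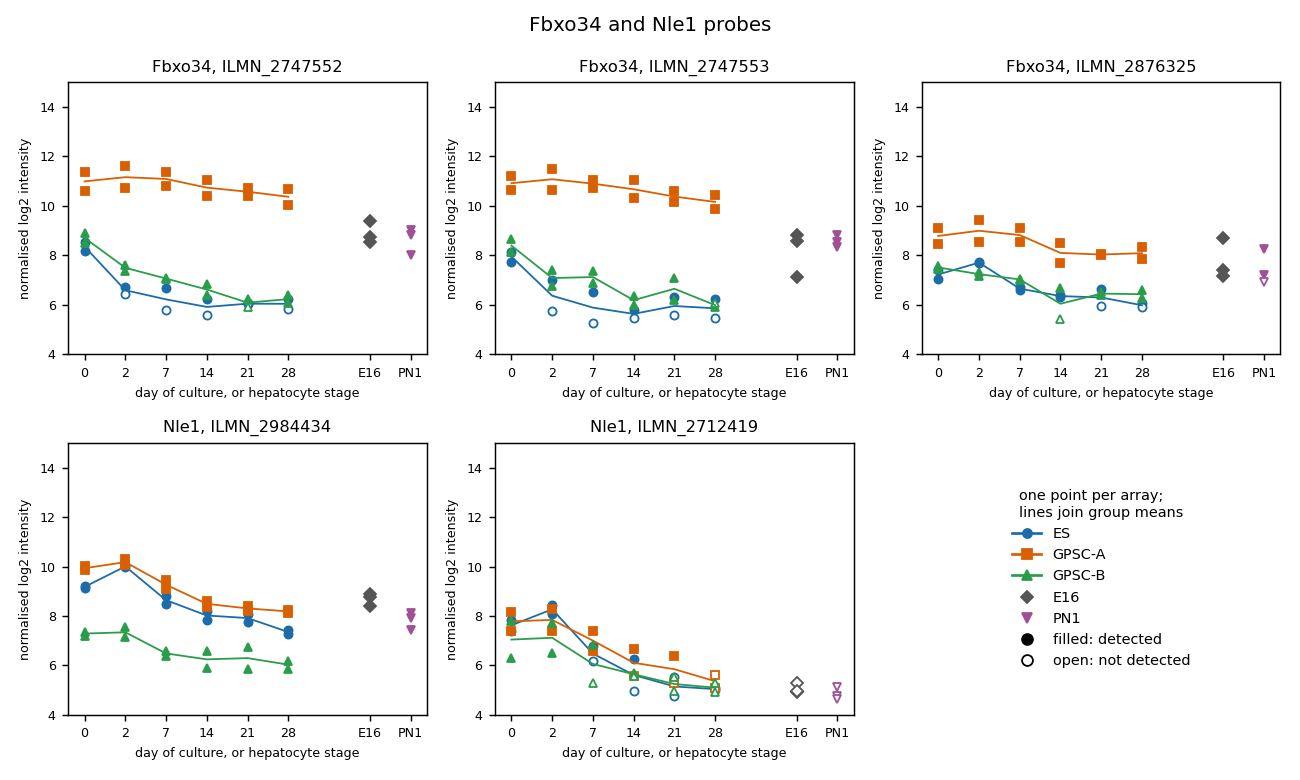
Normalised log2 intensity of 3 Fbxo34 probes and 2 Nle1 probes against day of culture and hepatocyte stage, 1 point per array, open where not detected. GPSC-A stands above both other lines on all 3 Fbxo34 probes, and GPSC-B stands below them on Nle1 ILMN_2984434, where its arrays run from 5.85 to 7.53.

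**Figure D4:**
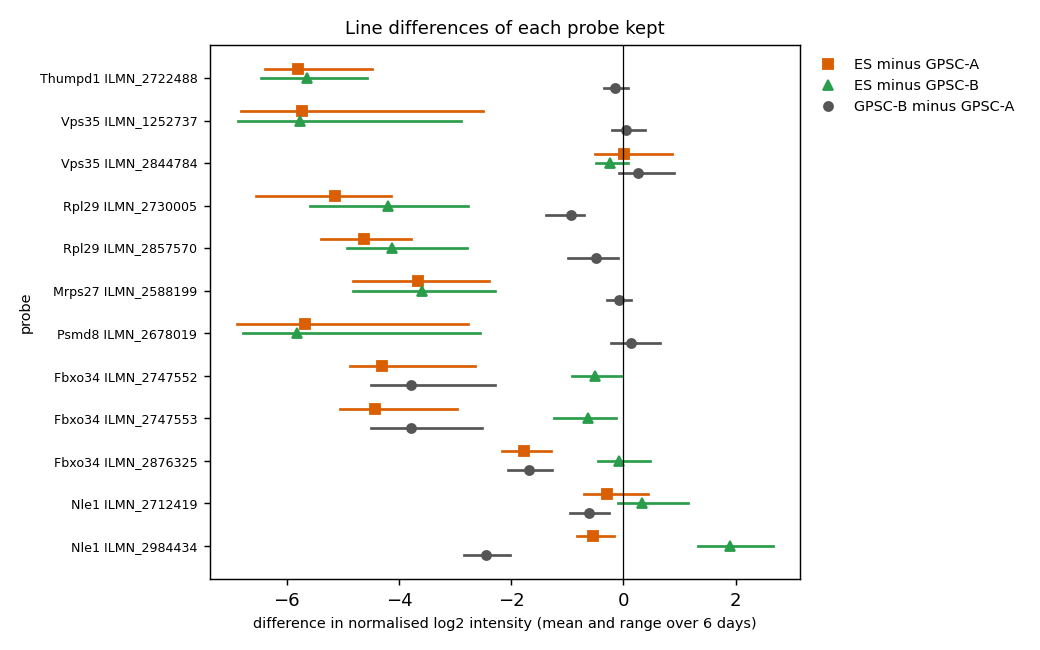
Difference in normalised log2 intensity for each line pair and each of the 12 probes kept, with the mean over 6 days as a point and the lowest and highest day as a line. ES differences of Thumpd1, Rpl29, Mrps27, Psmd8 and Vps35 ILMN_1252737 lie far below 0, and those of Vps35 ILMN_2844784 straddle it.

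Read over all kept probes, 9 of 12 fell from day 0 to day 28 in ES cells and 0 rose. Of all probes 30.3% were called in either direction and 15.5% fell, and the medians were -2.02 for the 12 and -0.02 for all. In GPSC-A 4 fell and 0 rose, against 26.2% of all probes called in either direction and 12.7% that fell, with a median of -0.66 beside 0.01 for all. In GPSC-B 6 fell and 0 rose, against 28.6% called in either direction and 14.6% that fell, with a median of -1.17 beside 0.02 for all. Those that fell in all 3 lines were Thumpd1 and both Nle1 probes. In ES cells Thumpd1 was called on its fitted change, with a bound of only 1.81-fold. PN1 against E16 gave 1 lower probe, Thumpd1, and 0 higher, against 21.7% of all probes called in either direction (1926 higher and 2248 lower of 19251).

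Cell type markers moved over the same 28 days, and their part in these falls was not tested. The mean of the 6 pluripotent markers went from 12.70 to 5.78 in ES cells, from 11.87 to 7.01 in GPSC-A and from 12.32 to 6.54 in GPSC-B, with 2, 4 and 2 of 6 still detected on both arrays. The mean of the 5 fibroblast markers went from 7.93 to 11.54, from 8.07 to 11.38 and from 8.02 to 11.05, with 5 of 5 detected in each line at day 28. The 4 measured leukocyte markers went from 5.56 to 10.04 in ES cells, where the day 28 arrays averaged 9.98 and 10.11. In GPSC-A they went from 6.06 to 7.08 and in GPSC-B from 5.75 to 6.96, where day 28 arrays lay apart, at 5.75 and 8.41 and at 5.41 and 8.52.

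Against E16 hepatocytes, with the same 3 E16 arrays in each comparison, day 28 ES cells had 6 lower and 0 higher probes, against 32.2% of all probes called in either direction. Fewer ES probes were called with median scaling or without background correction, as counted at the end. Day 28 GPSC-A had 7 higher and 0 lower, against 31.2%. Day 28 GPSC-B had 5 higher and 4 lower, against 29.6%. Over all 19251 probes, higher and lower calls were 3443 and 2749 for ES cells, 3442 and 2572 for GPSC-A and 3262 and 2428 for GPSC-B. Nothing is read from the contrast of ES cells with the lots here, because line differences at every day, day 28 included, chose the genes. The higher probes shared by the lots were Vps35 ILMN_1252737, both Rpl29 probes, Mrps27 and Psmd8 ILMN_2678019. All of them met the every-day rule as higher in both lots than in ES cells. The day 28 values of the lots thus took part in the choice, and nothing is read from the number or direction of these calls either. Mrps27 was called on its fitted values, with bounds under 2-fold.

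**Figure D5:**
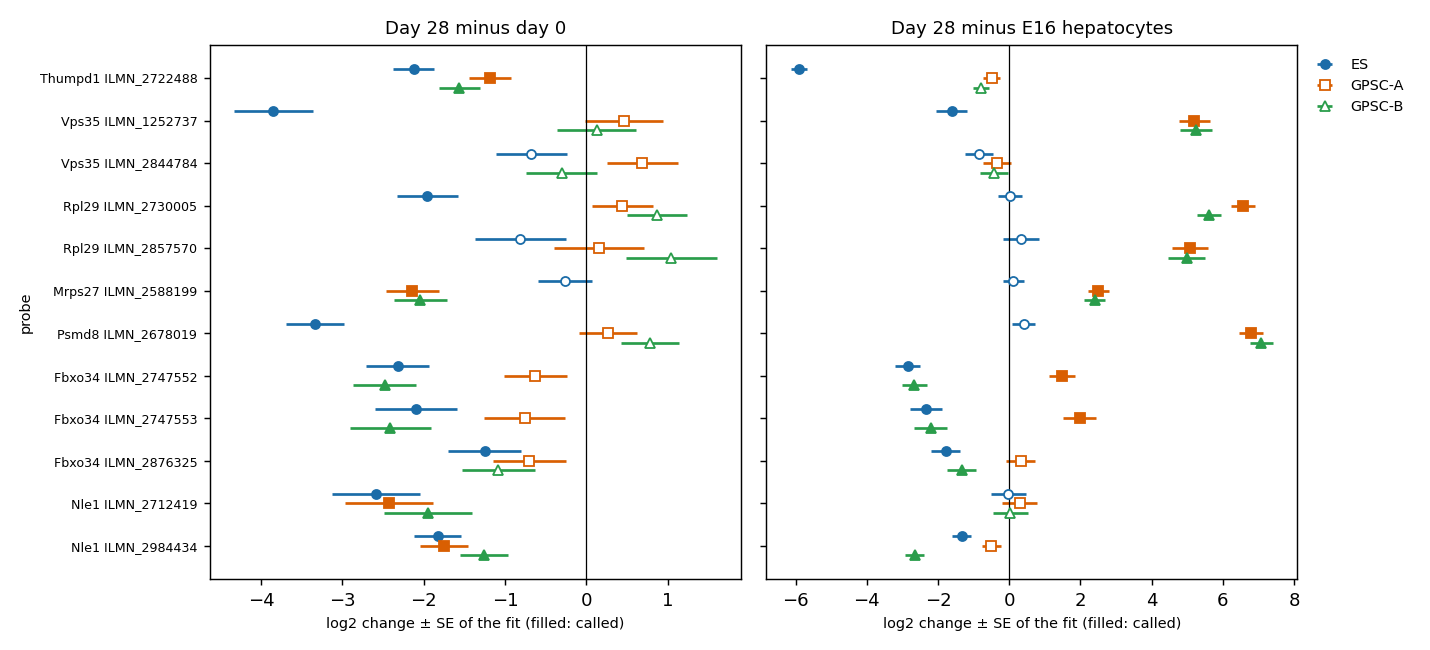
Fitted log2 change ± SE of each probe from day 0 to day 28 in each line (left) and of day 28 cells from E16 hepatocytes (right), with filled points for calls at an adjusted p under 0.05 and 2-fold. In the right panel the fitted Psmd8 change reaches 7.08 in GPSC-B, where E16 was undetected and the bound was 39.6-fold.

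The first 2 days were compared after the values had been seen. Between day 0 and day 2, 4 of the 12 probes fell in ES cells and 0 rose, against 6.92% of all probes called in either direction (438 higher and 894 lower). They were Psmd8 ILMN_2678019 (at least 4.76-fold lower, adjusted p = 8.5e-08), Vps35 ILMN_1252737 (-3.35 ± 0.48, adjusted p = 1.8e-05), Thumpd1 (at least 1.48-fold lower, adjusted p = 2.4e-06) and Fbxo34 ILMN_2747552 (-1.77 ± 0.39, adjusted p = 0.0031). The Thumpd1 call rests on its fitted change, as its bound was under 2-fold. The Vps35 and Fbxo34 probes were each detected on 1 of 2 ES arrays at day 2. The Fbxo34 call was lost without ES day 0 replicate 1 (-1.59, adjusted p = 0.056) or day 2 replicate 2 (-1.62, adjusted p = 0.062). ILMN_2747553 of the same gene gave -1.58 ± 0.50 (adjusted p = 0.05), which passed with the replicate block (adjusted p = 0.0041) and without day 2 replicate 1 (-2.22). The other ES probes that fell by day 28 had not fallen by day 2, where Rpl29 ILMN_2730005 had changed by -0.09, Nle1 ILMN_2984434 by 0.83, Nle1 ILMN_2712419 by 0.65 and Fbxo34 ILMN_2876325 by 0.48. None of these 4 passed, and the median over the 12 was -0.76 at day 2. In limma's test 0 of the 12 were called in GPSC-A, with 0 at an unadjusted p under 0.05, against 2.57% of all probes. In GPSC-B 0 were called, with 2 at that unadjusted level, against 1.42% of all probes, and the replicate block made it 1, Fbxo34 ILMN_2747552 (-1.21, adjusted p = 0.027).

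Markers of fibroblasts moved over the same days. The 5 markers (Col1a1, Col3a1, Lum, Dcn and Acta2) averaged 7.76 to 8.09 on the ES arrays of day 0 and 5.58 to 5.77 at day 2. They averaged 7.96 to 8.17 and then 6.41 to 6.48 in GPSC-A, and 7.92 to 8.11 and then 5.90 to 6.86 in GPSC-B. Acta2, smooth muscle actin, went from 15.21 to 9.06 in ES cells, from 15.24 to 9.71 in GPSC-A and from 15.19 to 9.36 in GPSC-B. At day 0, 2 of the 5 markers were detected on all arrays of each line, and at day 2, 1 of the 5 was. The part of such cells in the ES values of day 0 was not tested.

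Partners of each protein were set beside the share of all probes that met the every-day rule, 2.27% against GPSC-A and 2.99% against GPSC-B. For Rpl29, 41 probes of 29 other large subunit proteins were kept, and the every-day rule was met by 1 against GPSC-A and 3 against GPSC-B, all lower in ES (2.44% and 7.32%), with Rpl13a at -1.30 and -1.51 on average. For Mrps27, 44 probes of 26 small mitochondrial subunit proteins gave 2 and 3 (4.55% and 6.82%). Mrps12, also of that subunit, was lower in ES by -3.28 and -3.36 on ILMN_2777706 and by only -0.66 against GPSC-A on ILMN_1254734. Mrps23 instead marked GPSC-B, which was 2.78 above GPSC-A, with ES at -2.998 from GPSC-B.

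For Psmd8, 15 probes of 10 other regulatory particle genes gave 0 and 1 (6.67%), the ATPase Psmc2 at -0.71 from GPSC-B. For Vps35, 14 probes of 6 retromer and sorting nexin genes gave 0 and 2 (14.3%), both probes of Snx27, a nexin that binds cargo, at -1.42 and -1.33 from GPSC-B. For Thumpd1, 21 probes of 12 transfer RNA modification enzymes gave 2 and 2 (9.52% in each). Trmt1, a transfer RNA methyltransferase, was lower in ES (-1.96 and -2.03) and Nsun2, another, was higher (1.01 and 1.08). For Fbxo34, 13 probes of 9 SCF genes gave 1 and 1 (7.69% in each), which was Fbxo46, another F-box gene (-1.37 and -1.42). For Nle1, 17 probes of 11 other assembly factors gave 0 and 0.

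Over time, 15.5% of all probes fell in ES cells, 12.7% in GPSC-A and 14.6% in GPSC-B between day 0 and day 28. Of the 17 assembly factor probes, 16 fell in ES cells, 9 in lot A and 15 in lot B, and 0 rose in any, which is 94.1%, 52.9% and 88.2% of them, with median changes of -1.51, -1.07 and -1.43. Mdn1, the ATPase that acts on Nle1, fell, with changes of -3.29, -2.59 and -2.82, each ± 0.31 (adjusted p = 1.9e-09, 2.3e-07 and 4.2e-08), and Mrto4, another factor of the large subunit, with -1.99, -1.79 and -1.43, each ± 0.28 (adjusted p = 2e-06, 1.3e-05 and 0.00021). Of the 21 transfer RNA enzyme probes, 8, 6 and 8 fell (38.1%, 28.6% and 38.1%) and 0 rose. Among them Nat10, the partner of Thumpd1, fell, with changes of -2.65, -1.53 and -1.62, each ± 0.53 (adjusted p = 0.00024, 0.03 and 0.02). Of the 15 proteasome probes 6, 3 and 6 fell (40%, 20% and 40%) and 0 rose. Of the 44 mitochondrial subunit probes 8, 13 and 7 fell and 0, 1 and 1 rose, and the shares that fell, 18.2% in ES cells and 15.9% in GPSC-B, were near those of all probes, with 29.5% in GPSC-A.

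In the remaining lists the shares that fell between day 0 and day 28 were near or under those of all probes. Of the 41 large subunit protein probes, 1, 4 and 2 fell (2.44%, 9.76% and 4.88%) and 1, 1 and 2 rose. Among them Rpl22 rose by 1.501 ± 0.21 in GPSC-A (adjusted p = 3.2e-06) and 1.42 ± 0.21 in GPSC-B (adjusted p = 6e-06). Of the 14 retromer probes, 0, 0 and 1 fell (0%, 0% and 7.14%) and 0 rose. Of the 13 SCF probes, 2, 2 and 1 fell (15.4%, 15.4% and 7.69%) and 1, 0 and 1 rose. Cyclin F (Ccnf), itself an F-box protein, was at least 16.3-fold lower in ES cells (adjusted p = 9.8e-11) and at least 10.6-fold lower in GPSC-B (adjusted p = 3.5e-10).

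The genes most like each member over the 20 group means, by Pearson correlation on these shared groups, were as follows. Vps35 ILMN_1252737 was matched by Ociad1 (0.993), Ndel1 (0.993) and Ift52 (0.989), and Psmd8 by Ndel1 (0.992), Gm5801 (0.989) and Ociad1 (0.989). Thumpd1 was matched by Gtf2h1 (0.978), Tm2d3 (0.947) and C1galt1 (0.945), Rpl29 by Ddr1 (0.973), Zfp330 (0.965) and Gm5801 (0.965), and Mrps27 by Cd3eap (0.994), Fbxl18 (0.986) and Tsen54 (0.978). Fbxo34 was matched by 1700123O20Rik (0.968), Adpgk (0.949) and Srd5a3 (0.935), and Nle1 by Nudt12 (0.858), Oxsr1 (0.834) and Kbtbd2 (0.785). Vps35 and Psmd8 correlated with each other at 0.987, and Nle1 with Vps35 at -0.21.

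Across the array, 219 probes were lower in ES than in both lots at every day and 78 were higher, of which 50 and 6 differed by at least 4-fold at every day. Ranked by the smallest of their 12 differences, Thumpd1 was 2nd of these 297 probes, the Rpl29 probes were 26th and 27th, Psmd8 33rd, Vps35 35th and Mrps27 42nd. Of the top 10, 5 have no symbol here and the others were Thumpd1, Gm5801, Zfp330, Zfp869 and Ccdc124, all lower in ES. Of those without a symbol, ILMN_1219510 (ranked 1st), ILMN_1214408, ILMN_2958159 and ILMN_3159435 were higher in ES, and ILMN_2725227 was lower.

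The 28 nearest tested genes on the chromosome had 44 probes. Between ES and GPSC-A 4 of the 44 met the every-day rule (9.09%, against 2.27% of all probes), between ES and GPSC-B 2 did (4.55%, against 2.99%) and between the lots 2 did (4.55%, against 0.447%). Dusp7, a phosphatase gene 53.2 kb from Rpl29, was lower in ES by -2.50 from GPSC-A and -1.94 from GPSC-B. Man2b1, a lysosomal mannosidase gene 161.6 kb from Vps35, was lower in ES by -3.40 and -3.81 on ILMN_2484987, whereas its brighter ILMN_2707967 gave 0.43 and 0.27. Abhd14a, 8.5 kb from Rpl29, was higher in ES than in GPSC-A by 1.22 on ILMN_2888454 and gave -0.64 on its brighter probe. Near Fbxo34, Peli2, a ubiquitin ligase gene at 588.8 kb, was highest in GPSC-A, with ES at -1.503 and GPSC-B at -1.47, and Dlgap5, a mitotic spindle gene at 54.1 kb, had GPSC-B at -0.87 from GPSC-A. The neighbours closest to Thumpd1, Vps35, Mrps27 and Psmd8 (Acsm4, Orc6, Ptcd2 and Ggn, at 0.1 to 0.5 kb) did not meet it.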

How the data were processed

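The authors deposited a scanner table of signal intensities and detection p-values, headed as non-normalized per the file headers, and this was the main source. GenomeStudio was the software per the submitters' processing notes, which give no version. Their deposited series matrix, on a linear intensity scale with medians of 133.31 to 133.34 and an unstated normalisation, was an alternative. Probes with a detection p under 0.01 on 2 or more arrays were kept. The neqc function (limma 3.58.1, R 4.3.3) subtracted background by normexp, quantile normalised the deposited intensities and took log2 after adding 16. A limma model of 20 groups over the 42 arrays, with 22 residual degrees of freedom, gave p-values that were Benjamini-Hochberg adjusted over 19251 probes, and was tested on simulated data. Calls required both adjusted p under 0.05 and a fitted change of 2-fold, so the bound for an undetected group can be smaller. The number of arrays limits the precision. The day 2 contrasts and the bounds for undetected groups were added after the data were seen.

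The genes and lists were chosen with earlier results of these data known. Genes named were all members, up to 4 called genes per partner list with the largest changes and those meeting the every-day rule, the 3 genes most correlated with each member, the 2 nearest tested genes on each side, and the 10 probes leading the every-day rule. Only part of the partner genes are printed. Symbols came from the platform annotation, which gave 1 symbol to 34885 probes, several to 18 and none to 10378. Positions and promoter windows are RefSeq's for GRCm38.p6, and 5 of 7 members had a window. Vps35 and Rpl29 had no entry. Same-numbered arrays of a line deviated together, with correlations of 0.256 to 0.644 over 15 pairs of days per line, so the number was used as a block in an alternative fit. In hepatocytes the correlations were 0.007 to 0.078. Other alternatives were the series matrix, no background correction, median scaling, 2 other filters, only the groups compared, and leaving out each array. Figures used Python 3.11.15 and matplotlib 3.10.9.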

Additional observations from a re-analysis of the deposited data

Results flagged for a closer look

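In 5 comparisons every array of one line moved one way and every array of another the opposite way, and the difference between the lines was not tested in any of them. On Rpl29 ILMN_2730005, day 28 minus day 0 was -1.95 in ES cells against 0.45 in GPSC-A, a difference of -2.40, and against 0.87 in GPSC-B, a difference of -2.82. On Psmd8 ILMN_2678019 the same change was -3.33 in ES cells and 0.79 in GPSC-B, a difference of -4.12. On Vps35 ILMN_2844784, the probe on which lines overlapped, day 2 minus day 0 was -0.65 in ES cells and 0.35 in GPSC-A, a difference of -1 log2 unit. On Fbxo34 ILMN_2876325 it was 0.48 in ES cells and -0.27 in GPSC-B, a difference of 0.75.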

How the results depend on the processing

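No alternative turned the sign of a called change, but 19 alternative values turned that of 4 mean line differences, of at most 0.0811 in size, and 66 that of 40 uncalled changes. Vps35 ILMN_2844784 between ES and GPSC-A went from 0.01 to -0.19 with median scaling, and Thumpd1 in day 28 GPSC-B against E16, the largest of the uncalled changes to turn, from -0.79 to 0.06. Counts of members called moved by over 1.5 times in these cases. PN1 against E16, 1 in the report, gave 0 with the series matrix, 0 without background correction and 2 with median scaling. Day 28 ES cells against E16, 6 in the report, gave 3 without background correction and 2 with median scaling, which also gave 2 for GPSC-A from day 0 to day 28 and 3 for the every-day rule between the lots. The first 2 days gave 2 calls in ES cells from a fit of only the groups compared, and 1 in GPSC-B with the replicate block. The replicate block changed the calls of 3 single probes, all of Fbxo34 and given above, and no other member call. Leaving out each array gave 8 in ES cells, 4 in GPSC-A and 5 to 6 in GPSC-B from day 0 to day 28, 1 to 2 for PN1 against E16, 5 to 7, 6 to 7 and 8 to 9 for ES cells and the lots A and B against E16, 3 to 5 in ES cells and 0 in either lot over the first 2 days, and 10, 7 and 5 for the every-day rule. Of single-probe tests under the other settings, 801 kept their call, 33 lost it and 6 gained it. Mean line differences moved by more than the replicate spread in 41 of the alternative values. With the series matrix, the mean difference for Rpl29 ILMN_2730005, ES against GPSC-A at every day, was -4.37, where the main setting gave -5.13. Over all probes, calls ranged from 3414 to 6464 for ES cells from day 0 to day 28 (5831 in the main setting), 2089 to 4482 for PN1 against E16 (4174), and 228 to 2013, 18 to 830 and 0 to 476 for the first 2 days in ES cells and the lots A and B (1332, 495 and 274). Signals under the lowest detected log2 value of each array, 5.43 to 7.33, carry no order.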
